A study of Mus musculus with 58 samples.

Results

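The genes described here are 38 chromatin and transcription regulators whose human counterparts are mutated in autism and intellectual disability. They were chosen by name, as a list of gene symbols, by a rule that uses no measured value. Earlier results of these data were known when the list was chosen. Each symbol was matched to 1 Ensembl gene of the deposited table, so that the set makes up 38 of the 18088 genes measured. All 38 also passed the minimum of a mean normalised read count of 10 that left 16606 genes for testing.

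The RNA came from prefrontal cortex of C57BL/6J mice at postnatal day 25, sequenced as 58 libraries of polyadenylated RNA. The mice carried a heterozygous knock-in allele of Tbl1xr1 (HT, 30 libraries) or were wild type (WT, 28 libraries). Vehicle, fluoxetine (a serotonin reuptake inhibitor) or lithium (a mood stabiliser) reached the pups through their mother's milk from day 3 to day 24. Combining 2 genotypes, 3 treatments and 2 sexes gave 12 groups, of 5 libraries each except the WT lithium females and the WT lithium males with 4 each. The nature of the knock-in change, the dams and the litters are not given in the labels. Litter and drug therefore cannot be told apart, and the p-values measure the spread between libraries.

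Chromatin regulators set how tightly DNA is wrapped and which marks its histones carry. Remodelling complexes such as BAF, the mammalian SWI/SNF complex, slide or evict nucleosomes with energy from ATP, while methyltransferases, demethylases and acetyltransferases write or erase marks on histone tails, and DNA-binding proteins and coregulators bring these enzymes to their sites. TBL1XR1 belongs to a corepressor complex through which unliganded nuclear receptors and other factors recruit the deacetylase HDAC3. In the cortex many of these genes are most needed while neurons are born and mature, and loss of a single copy of many of them is enough to cause a developmental disorder.

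Most of the set was well expressed. Expressed per length as TPM (recovered reads over the length of the longest protein-coding transcript, scaled to the same total in every library), 36 of the 38 genes lay above the median of all genes in the table, which was 12.2 TPM. The highest were Smarcc2 at 146 ± 9.34 TPM (SD, n = 58), Smarca2 at 103.4 TPM (range 90.7 to 121.2) and Tcf4 at 98.7 ± 11.1 TPM. The lowest were Chd7 at 3.93 ± 1.09 TPM and Asxl3 at 4.51 ± 0.798 TPM. Every member had a transcript longer than the 3065-base median of the genes tested, from 3782 bases for Ctcf to 19823 bases for Kmt2d.

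**Figure D1:**
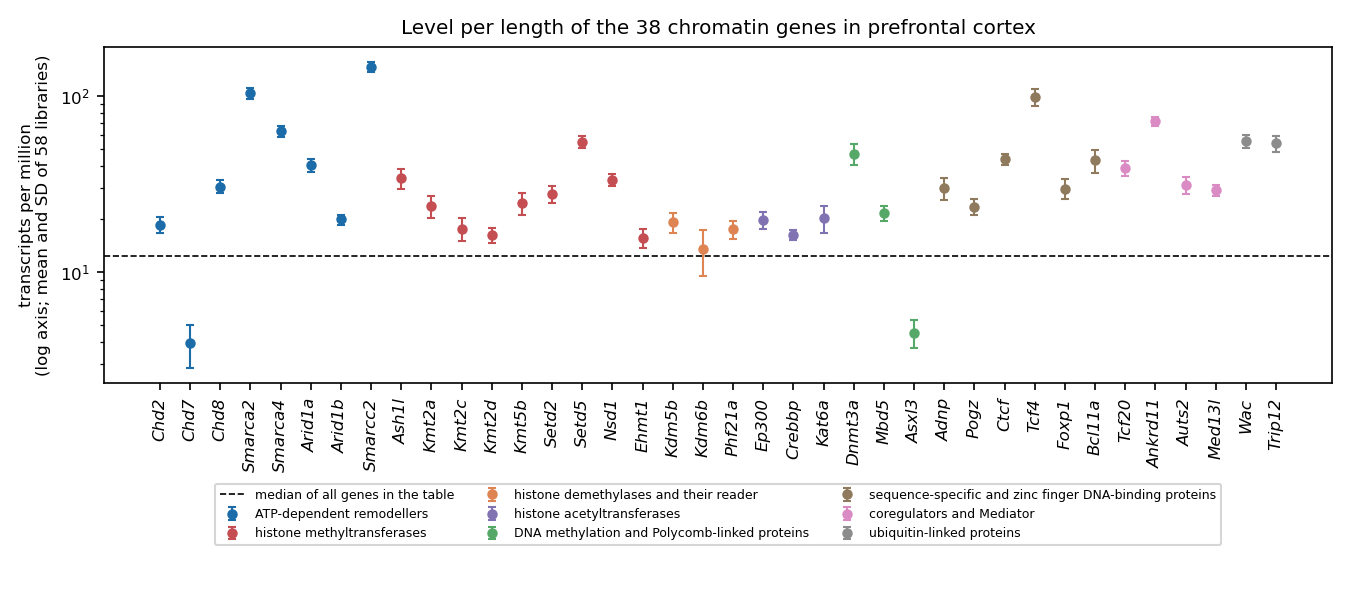
Level of each of the 38 genes in TPM on a log axis, as mean and SD over 58 libraries, coloured by role, with the median of all genes (12.2) as a dashed line. Only Chd7 and Asxl3 lie below the line, and Smarcc2, Smarca2 and Tcf4 lie highest.

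The libraries held 22.9 to 35.0 M recovered reads (median 26.7 M). Tbl1xr1 itself ranged from 2276 to 2747 normalised read counts in the 30 HT libraries and from 1817 to 2279 in the 28 WT libraries, and rose in HT under vehicle by 0.29 ± 0.034 on the log2 scale (limma adjusted p = 2.25e-07), by 0.32 under fluoxetine (adjusted p = 1.23e-08) and by 0.26 under lithium (adjusted p = 2.2e-05). Its alleles cannot be told apart in these counts. The excitatory neuron markers of cortex were present in all libraries (Slc17a7 from 36360 to 53380). Markers of tissue next to the prefrontal cortex varied between libraries: the summed count of 10 genes of the olfactory bulb and migrating neuroblasts (Th, Tbx21, Eomes, Cdhr1, Dcx, Sp8, Sp9, Doc2g, Calb2 and Trh) ran from 2486 to 36951, with Tbx21 and Eomes at 0 in the poorest libraries. The sum reached 15000 in 14 libraries: 8 of 28 WT and 6 of 30 HT, and 3 of 20 vehicle, 6 of 20 fluoxetine and 5 of 18 lithium libraries. Its median was 9403 in the WT and 4264 in the HT libraries. By treatment the median was 4839 under vehicle, 6844 under fluoxetine and 8508 under lithium. The summed count of 9 striatal genes ran from 5714 to 22820. In bulk tissue, fewer cells of a type and less RNA per cell cannot be told apart.

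Across the 16 comparisons, few members changed. Changes are log2 differences of normalised read count + 1 with standard errors, a gene is called when its limma p adjusted over all 16606 genes is under 0.05, and every share of all genes called is given for background. With HT compared with WT, no member was called under vehicle (0 of 38, against 0.0181% of all genes), under fluoxetine (0 of 38, against 0.994%), under lithium (0 of 38, against 0.012%) or averaged over the treatments (0 of 38, against 1.07%). At an unadjusted p under 0.05 the members numbered 1, 2, 1 and 3, and the quasi-likelihood test of edgeR and DESeq2 also called 0 in each. Fluoxetine called 0 members in WT (0.367% of all genes) and 0 in HT (0% of all genes), with 4 and 3 at an unadjusted p under 0.05, and 1 member averaged over genotypes (2.55% of all genes), which was Tcf4. Lithium called 0 in WT (0.0301% of all genes, with 0 at an unadjusted p under 0.05), 1 in HT (0.385% of all genes), namely Smarcc2, and 2 averaged over genotypes (2.67% of all genes), namely Smarcc2 and Smarca2. Counts of 1 and 2 members do not set the 38 genes apart from the background. Neither edgeR nor DESeq2 called a member for a drug in WT or for fluoxetine in HT. No drug effect on a member differed between the genotypes at the threshold: 0 members were called for fluoxetine by genotype (0% of all genes, 0 members at an unadjusted p under 0.05) and 0 for lithium by genotype (0% of all genes, 1 member at an unadjusted p under 0.05), also with edgeR and DESeq2. The fluoxetine and lithium effects share the vehicle libraries, and the averaged effects contain those within each genotype.

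Small differences below 0 were more frequent than above in several comparisons. Under lithium 30 of 38 members lay below 0 in HT and 27 averaged over genotypes, under fluoxetine 31 in HT and 28 averaged over genotypes, and in HT against WT 32 under lithium and 27 averaged over treatments. With each library's trend over GC content and transcript length removed, these counts were 27, 24, 21, 22, 22 and 20 in the same order. With the olfactory bulb list as a covariate they were 32, 32, 31, 30, 20 and 19. Without the 14 libraries in which that list was high they were 33, 35, 33, 26, 21 and 24. Without these changes of setting, the median change of the 38 members in these comparisons ran from -0.040 to -0.020. That of all genes tested ran from -0.0034 to 0.0017. In WT, 20 members lay below 0 under lithium and 21 under fluoxetine. In HT against WT, 20 lay below 0 under vehicle and 25 under fluoxetine. Some of these balances turned with the setting. HT against WT under vehicle had 12 members below 0 with the trend removed, 13 with median centring and 10 with the covariate. It had 11 without the 14 libraries and 10 without the 2 libraries of lowest length slope. HT against WT under fluoxetine had 18 with the trend removed and 18 without those 2 libraries. Fluoxetine in WT had 17 without the 14 libraries. Members move together between libraries, as described further on, so that such a count is not a count of independent genes.

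**Figure D2:**
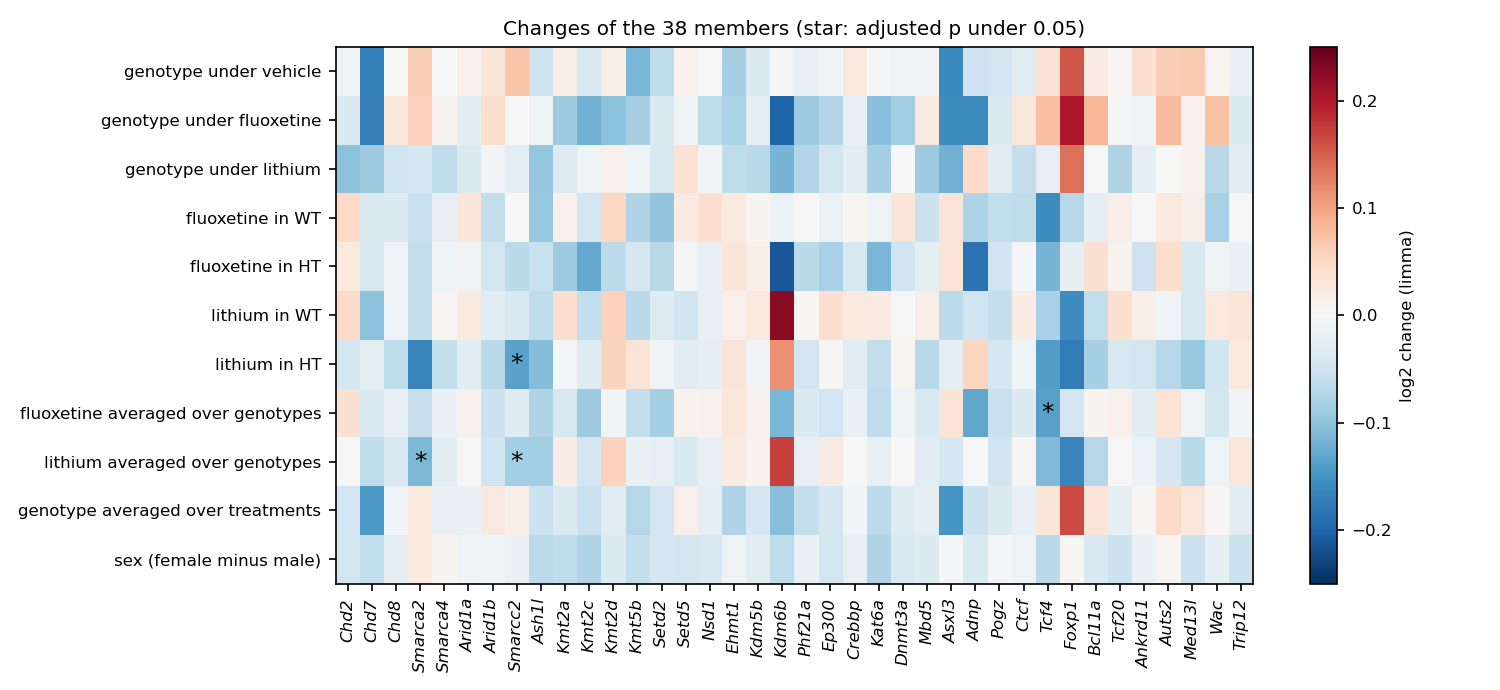
Log2 change of each of the 38 members (columns, by role) in 11 comparisons (rows), with red for higher and blue for lower. Stars mark the 4 calls: Smarcc2 for lithium in HT, Tcf4 for fluoxetine averaged over genotypes, and Smarca2 and Smarcc2 for lithium averaged over genotypes.

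Among the 8 ATP-dependent remodellers, the mRNAs of a pair of BAF subunits, Smarcc2 and Smarca2, fell in mice given lithium. Smarcc2 encodes BAF170, a scaffold subunit of BAF, and its mRNA fell by 0.13 ± 0.026 on the log2 scale in HT mice given lithium, in 10 of 10 libraries set against the vehicle mean of their own sex (limma adjusted p = 0.0072). The HT vehicle females had 7406, 7570, 7726, 7840 and 8071 normalised read counts and the HT vehicle males 7733, 7789, 7816, 8004 and 8045. The HT lithium females had 6765, 6908, 7002, 7032 and 7442, and the HT lithium males 7037, 7109, 7209, 7231 and 7386. All lithium males lay below all vehicle males, and in females a single lithium library reached above the lowest vehicle library. The difference was of similar size in each sex, at -0.14 ± 0.036 in females and -0.13 ± 0.036 in males, although neither sex alone passed the threshold.

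In WT mice the Smarcc2 difference under lithium did not pass. The WT vehicle females had 6956, 7142, 7181, 7462 and 7626 and the WT vehicle males 7181, 7609, 7655, 7691 and 7829. The WT lithium females had 7121, 7138, 7493 and 7707, and the WT lithium males 6899, 6962, 7105 and 7482. The WT groups overlapped in both sexes, with a log2 difference of -0.038 ± 0.027 (adjusted p = 0.714). The difference of the lithium effect between HT and WT was -0.095 ± 0.037, with an unadjusted p of 0.0138 and an adjusted p of 0.998, so that a larger effect in HT was not shown. Smarca2 at -0.10 ± 0.065 and Smarca4 at -0.065 ± 0.043 followed it in that contrast, each with an adjusted p of 0.998. Smarcc2 was also the member with the smallest p for HT against WT under vehicle, at 0.070 ± 0.026 and higher in 10 of 10 libraries, with an adjusted p of 0.719. That comparison and the lithium effect in HT share the 10 HT vehicle libraries. Averaged over genotypes, lithium gave -0.086 ± 0.019 in 16 of 18 libraries (adjusted p = 0.00663). Fluoxetine gave Smarcc2 means of 7484 ± 384 in WT females, 7397 ± 116 in WT males, 7348 ± 504 in HT females and 7558 ± 170 in HT males (SD, n = 5 each). In HT, fluoxetine against vehicle was -0.067 ± 0.026 with an adjusted p of 0.386, and the difference of that effect between HT and WT was -0.069 ± 0.036 (adjusted p = 0.964).

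Smarca2 encodes BRM, 1 of the 2 alternative ATPase motors of BAF. It fell by 0.11 ± 0.033 with lithium averaged over genotypes, in 16 of 18 libraries (adjusted p = 0.0461). The 20 vehicle libraries ran from 5907 through a median of 7050 to 8037 normalised read counts, and the 18 lithium libraries from 5817 through a median of 6594 to 7299. The ranges overlapped widely. In HT the difference was -0.17 ± 0.045 in 10 of 10 libraries without passing (adjusted p = 0.0757). The group means were 7007 ± 380 in WT vehicle females, 6866 ± 628 in WT vehicle males, 7077 ± 320 in HT vehicle females and 7408 ± 751 in HT vehicle males (n = 5 each). Under lithium they were 6599 ± 341 in WT females and 6697 ± 510 in WT males (n = 4 each), and 6516 ± 325 in HT females and 6384 ± 378 in HT males (n = 5 each). Under fluoxetine they were 7017 ± 189 in WT females, 6344 ± 522 in WT males, 6983 ± 353 in HT females and 6906 ± 641 in HT males (n = 5 each).

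The Smarca2 call lay close to the threshold. It was lost in 24 of the 38 fits that each left out 1 library, with adjusted p from 0.016 to 0.0903, and it held without WT vehicle female 2 or 4, WT vehicle male 1 or 2, HT vehicle female 1 or 4, HT vehicle male 1 or 5, WT lithium female 2 or 4, WT lithium male 2 or 3, HT lithium female 3 or HT lithium male 5. It was also lost with median centring (adjusted p = 0.0853), with the GC and length trend removed (0.129), with only the groups compared (0.0535) and without the 2 libraries of lowest length slope (0.0568). In HT alone it passed with array weights, with the olfactory bulb covariate, without the 14 libraries in which that list was high, with DESeq2, and without HT vehicle male 1 (adjusted p = 0.036) or HT vehicle male 5 (adjusted p = 0.0492). Smarca2 ran against the olfactory bulb list: its median was 6162 in the 14 libraries where that list reached 15000 and 6955 in the other 44. Without those 14 libraries the lithium difference was -0.093 (adjusted p = 0.0766), and with the list as a covariate it was -0.10 (adjusted p = 0.00986). For Smarcc2 the medians were 7433 and 7452 and the difference was -0.094 without the 14 libraries (adjusted p = 0.0291). A few vascular and microglial markers were called with lithium. Averaged over genotypes, 1 of 5 endothelial markers (Kdr), 1 of 4 mural markers (Acta2) and 1 of 6 microglial markers (Cx3cr1) fell, and the others did not pass. The endothelial sum ran from 3928 to 5585 in the vehicle and from 3427 to 4929 in the lithium libraries, the mural sum from 4377 to 6952 and from 3694 to 6521, and the microglial sum from 6201 to 8771 and from 6106 to 8294, so that the ranges overlapped widely. No marker of these lists was at 0 in any library. Their part in the Smarcc2 and Smarca2 results was not tested.

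**Figure D3:**
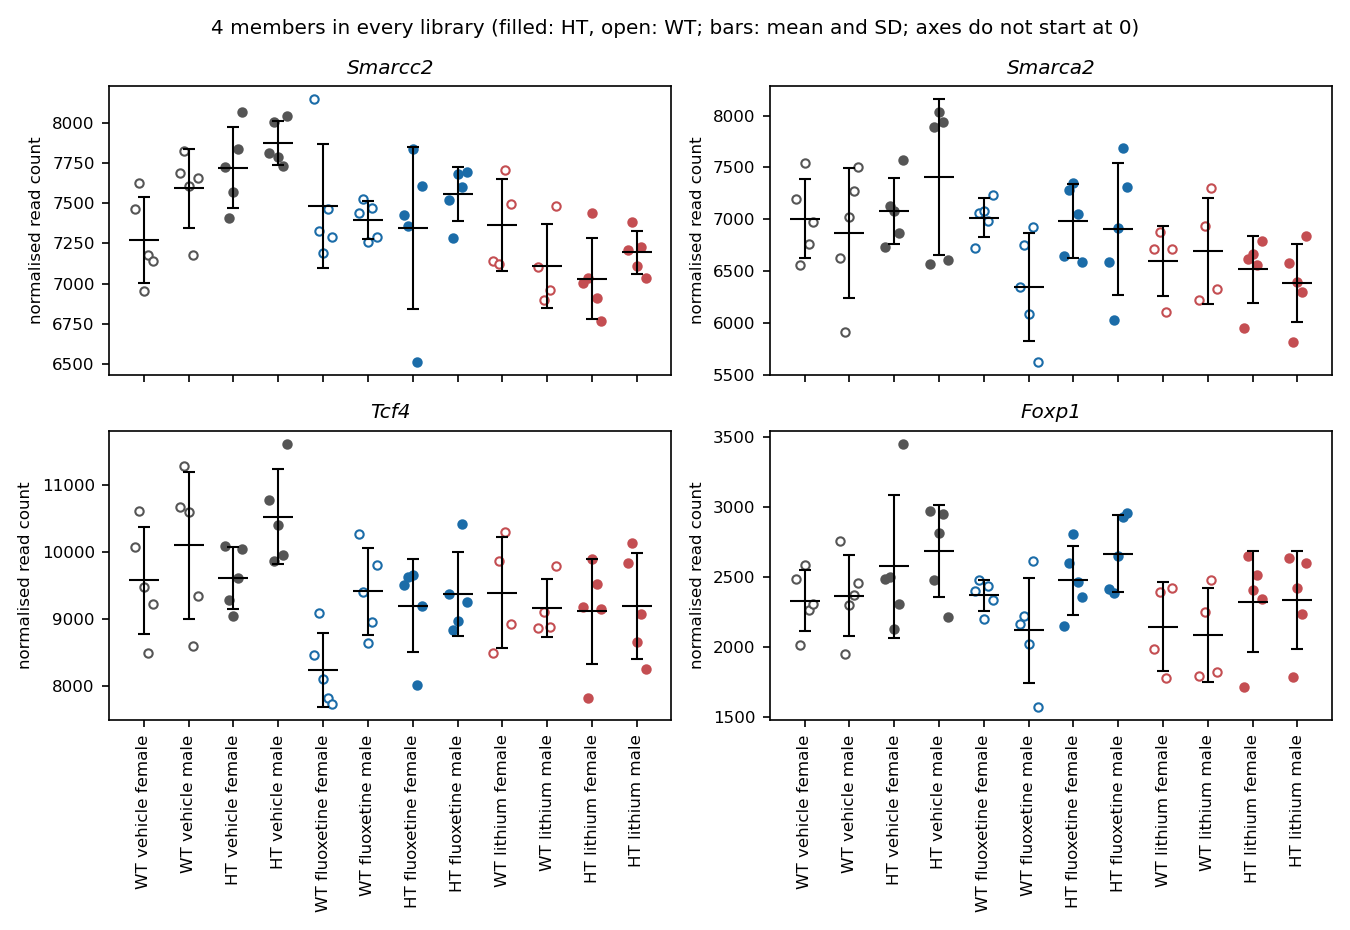
Normalised read counts of Smarcc2, Smarca2, Tcf4 and Foxp1 in every library of the 12 groups, with vehicle in grey, fluoxetine in blue and lithium in red, HT filled and WT open, and bars for mean and SD. For Smarcc2 all HT lithium males (7037 to 7386) lie below all HT vehicle males (7733 to 8045).

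The listed partners of BAF were 21 further subunits. Under lithium averaged over genotypes, 2 of the 21 were called, against 2.67% of all genes, and both fell. Smarcd3, which encodes a BAF60 subunit, fell by 0.11 ± 0.030 (limma adjusted p = 0.0355). Actl6b, which encodes the neuron-specific actin-like subunit BAF53B, fell by 0.096 ± 0.023 (adjusted p = 0.0138). Smarcd3 had medians of 1446 (1311 to 1660) in the 20 vehicle and 1357 (1170 to 1564) in the 18 lithium libraries. Actl6b had medians of 2034 (1867 to 2174) and 1910 (1771 to 2053). Both kept overlapping ranges. Of the 21 partners, 9 lay above 0 and 12 below, with a median of -0.027, against a median of -0.00066 over all genes tested.

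The sequences upstream of these 4 genes are shown because their mRNAs were the BAF subunits called with lithium. Each is the stretch of 250 bases before the RefSeq start on GRCm38.p6, at chr10:128458986-128459235 on the plus strand for Smarcc2, chr19:26604910-26605159 on the plus strand for Smarca2, chr5:24602003-24602252 on the minus strand for Smarcd3 and chr5:137553296-137553545 on the plus strand for Actl6b. Capitals mark CG dinucleotides, the sites of DNA methylation in mammals.
Smarcc2: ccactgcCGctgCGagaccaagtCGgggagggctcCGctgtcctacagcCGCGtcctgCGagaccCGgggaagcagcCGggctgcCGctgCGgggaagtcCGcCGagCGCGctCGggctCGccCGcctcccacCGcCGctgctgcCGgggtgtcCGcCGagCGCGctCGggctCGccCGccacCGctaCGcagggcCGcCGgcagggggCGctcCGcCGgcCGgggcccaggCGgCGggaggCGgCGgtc
Smarca2: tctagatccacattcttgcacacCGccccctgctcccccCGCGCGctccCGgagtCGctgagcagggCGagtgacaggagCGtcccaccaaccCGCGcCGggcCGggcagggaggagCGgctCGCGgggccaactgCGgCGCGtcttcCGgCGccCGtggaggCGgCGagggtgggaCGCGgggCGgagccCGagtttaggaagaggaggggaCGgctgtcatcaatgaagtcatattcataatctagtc
Smarcd3: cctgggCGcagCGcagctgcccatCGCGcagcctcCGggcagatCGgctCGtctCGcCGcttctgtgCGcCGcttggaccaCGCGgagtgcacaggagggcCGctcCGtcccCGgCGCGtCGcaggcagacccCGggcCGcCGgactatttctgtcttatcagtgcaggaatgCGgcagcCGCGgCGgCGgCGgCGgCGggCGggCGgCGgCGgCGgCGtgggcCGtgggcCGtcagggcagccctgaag
Actl6b: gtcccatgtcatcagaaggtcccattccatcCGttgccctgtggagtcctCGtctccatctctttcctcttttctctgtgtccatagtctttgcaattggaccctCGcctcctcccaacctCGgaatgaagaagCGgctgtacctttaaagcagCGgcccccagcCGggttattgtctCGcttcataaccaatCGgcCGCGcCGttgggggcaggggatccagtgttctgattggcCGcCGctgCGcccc
Smarcc2 held 40 CG dinucleotides in this window, Smarca2 28, Smarcd3 38 and Actl6b 15, against a median of 6 over 32851 windows of the same length before RefSeq starts. Windows were found for 28 of the 38 members, 36 windows in all, and their median was 26 CG dinucleotides. The GC box letters GGGCGG or, on the other strand, CCGCCC were in 83.3% of the members' windows and 32.7% of all windows. The TATA box letters TATAAA or TTTATA were in 2.8% of the members' windows and 12.4% of all. Neither the cAMP response element TGACGTCA nor the ETS letters CCGGAAGT (or ACTTCCGG) were in any of the 36 windows, against 1.5% and 2.9% of all. The NRF1 core letters GCATGCGC or GCGCATGC were in 2.8% of the members' windows and 2.3% of all, and the E-box CACGTG in 5.6% and 6.0%. The GC box letters were absent from the printed Smarcc2 and Actl6b windows. The windows used as background came from 27025 genes and were not matched to the members for expression. Methylation and factor binding at these windows were not analysed here.

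The other 6 remodellers were not called in any comparison at the settings reported. Arid1b, the BAF subunit most often mutated in intellectual disability, had the smallest within-group SD of the set (0.047 on the log2 scale) and came closest, with -0.053 ± 0.018 for fluoxetine averaged over genotypes (adjusted p = 0.0931) and -0.050 ± 0.018 for lithium (adjusted p = 0.131). With the GC and length trend removed it was called for HT against WT under fluoxetine and averaged over treatments, and with the olfactory bulb covariate for fluoxetine averaged over genotypes. Smarca4, the alternative BAF motor BRG1, stayed between 4106 and 4838 counts over all 58 libraries. It had the smallest p for HT against WT under lithium, at -0.064 ± 0.031 (adjusted p = 0.915). Arid1a ran from 3133 to 4258 counts and was at -0.0015 ± 0.029 under lithium averaged over genotypes. Of the chromodomain helicases, Chd8, a leading autism gene, ran from 2468 to 3326 counts and Chd2, an epilepsy gene, from 1447 to 2241. Chd2 was at -0.10 ± 0.053 for HT against WT under lithium (adjusted p = 0.915). Chd7, mutated in CHARGE syndrome, had the widest within-group SD of the set (0.31) and ran from 276 to 740 counts. Under lithium in HT all 8 remodellers lay below 0, with a median of -0.061, and 1 passed, against 0.385% of all genes. The median over all genes tested was -2.7e-05. Members moved together between libraries, so that 8 is not a count of independent genes. Of all 38 members 30 lay below 0 in that comparison, and 27 with the GC and length trend removed.

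The 9 histone methyltransferases showed no call. They include the H3K4 writers Kmt2a, Kmt2c and Kmt2d, the H3K36 writers Setd2, Nsd1 and Ash1l, the H3K9 writer Ehmt1 and the H4K20 writer Kmt5b, together with Setd5. Averaged over treatments, 8 of the 9 lay below 0 in HT, with a median of -0.047, where 8302 of all genes tested lay above 0 and 8304 below. This is not a count of independent genes, since members moved together between libraries. Of all 38 members 27 lay below 0 in this comparison, 20 with the GC and length trend removed and 19 with the olfactory bulb list as a covariate. The lowest of the 9 were Ehmt1 at -0.076 ± 0.032 (adjusted p = 0.25) and Kmt5b at -0.071 ± 0.038. Between libraries, after group means were subtracted, Ehmt1 had r = 0.73 and Kmt5b r = 0.75 with the olfactory bulb list. Setd2 was at -0.083 ± 0.038 with fluoxetine averaged over genotypes and Kmt2d at -0.118 ± 0.078 in the fluoxetine by genotype contrast (adjusted p = 0.964), which was -0.075 without HT fluoxetine female 4. Nsd1 was called for fluoxetine averaged over genotypes with the GC and length trend removed. Kmt2a ran from 2648 to 5727 counts, Kmt2c from 1867 to 3727, Ash1l from 2881 to 5220, Nsd1 from 3820 to 5170 and Setd5 from 3380 to 4711.

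Of the partners of these enzymes, Rbbp5, a core subunit shared by the KMT2 complexes, was called in 2 comparisons, which share the WT fluoxetine libraries. It was higher in HT than WT under fluoxetine by 0.13 ± 0.028 (limma adjusted p = 0.0149) and fell with fluoxetine in WT by 0.12 ± 0.028 (adjusted p = 0.0391). No other of the 12 listed H3K4 partners was called there, and none of the 12 further histone methyltransferases was called in any of the 16 comparisons.

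The demethylase genes Kdm5b and Kdm6b and the reader gene Phf21a, whose protein binds unmethylated H3K4 within the LSD1 complex, were not called. Kdm6b removes H3K27 methylation and is induced by stimulation, and it ran from 592 to 1734 counts, with a within-group SD (0.30) second to that of Chd7. It was at 0.23 ± 0.15 for lithium in WT (adjusted p = 0.686) and -0.21 ± 0.14 for fluoxetine in HT (adjusted p = 0.667). Both were within 2 standard errors of 0, and the former was 0.13 without WT lithium female 3 and 0.12 without WT lithium male 4. Kdm5b ran from 1507 to 2382 counts and Phf21a from 990 to 1515. The X-linked relatives Kdm6a and Kdm5c, which escape X inactivation, were the partners called for sex: Kdm6a was higher in females by 0.36 ± 0.045 (adjusted p = 1.73e-07) and Kdm5c by 0.24 ± 0.027 (adjusted p = 9.51e-09).

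The acetyltransferases Ep300 and Crebbp, paralogous coactivators, and Kat6a, which acetylates H3 with its partners, had no call. Crebbp was steady, from 1751 to 2200 counts, while Ep300 ran from 1441 to 2485 and Kat6a from 1267 to 2874. Their partner Meaf6, a small subunit shared by acetyltransferase complexes, fell with lithium averaged over genotypes by 0.10 ± 0.021 (adjusted p = 0.00439). It was the single call among 9 listed partners in that comparison, against 2.67% of all genes.

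Of the DNA methylation and Polycomb-linked genes, Dnmt3a, the de novo DNA methyltransferase of postnatal neurons, ran from 3991 to 6634 counts and was at -0.032 ± 0.039 in HT averaged over treatments. Asxl3, a partner of the BAP1 deubiquitinase, was the lowest member in HT, at -0.15 ± 0.053 (adjusted p = 0.162) and lower in 21 of 30 libraries. It lay at -0.16 ± 0.090 under vehicle (adjusted p = 0.857). Between libraries, after group means were subtracted, Asxl3 had r = 0.73 with the olfactory bulb list. Mbd5 ran from 1606 to 2438 counts and was at -0.092 ± 0.051 for HT against WT under lithium. None of the 13 partners of this role was called in any comparison.

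Among the 6 DNA-binding proteins, Tcf4 fell with fluoxetine. Tcf4 encodes a basic helix-loop-helix factor whose loss causes Pitt-Hopkins syndrome, and averaged over genotypes it fell by 0.14 ± 0.035, in 17 of 20 libraries (limma adjusted p = 0.0245). The 20 vehicle libraries ran from 8499 through a median of 10006 to 11623 normalised read counts, and the 20 fluoxetine libraries from 7732 through a median of 9138 to 10429. The ranges overlapped over most of their width. The group means under vehicle were 9577 ± 807 in WT females, 10100 ± 1100 in WT males, 9618 ± 461 in HT females and 10530 ± 712 in HT males (n = 5 each). Under fluoxetine they were 8241 ± 552, 9415 ± 651, 9202 ± 691 and 9375 ± 627 in the same order (n = 5 each).

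The Tcf4 difference was -0.16 ± 0.049 in WT (adjusted p = 0.115) and -0.12 ± 0.049 in HT (adjusted p = 0.445), and -0.14 ± 0.049 in females and -0.13 ± 0.049 in males. None of these passed alone, although that in WT did with array weights. Lithium gave 9397 ± 833 in WT females and 9165 ± 437 in WT males (n = 4 each), and 9116 ± 782 in HT females and 9192 ± 790 in HT males (n = 5 each). The lithium effect averaged over genotypes was -0.11 ± 0.036 (adjusted p = 0.0791), measured against the same 20 vehicle libraries, and it passed without WT vehicle male 4 (adjusted p = 0.0415), with the GC and length trend removed (0.0212) and with the olfactory bulb covariate (0.0337). In HT it was -0.14 ± 0.049 (adjusted p = 0.195) and -0.081 ± 0.052 in WT (adjusted p = 0.672). With the 14 libraries rich in olfactory bulb genes left out, the fluoxetine difference was -0.12 with an adjusted p of 0.222. With each library's trend over GC content and transcript length removed it was -0.086 with an adjusted p of 0.0475. Vascular markers were also lower with fluoxetine averaged over genotypes: Kdr and Cdh5 of 5 endothelial and Acta2, Myh11 and Rgs5 of 4 mural markers were called. The endothelial sum ran from 3505 to 5712 under fluoxetine against 3928 to 5585 under vehicle, and the mural sum from 3688 to 6559 against 4377 to 6952. Their part in the Tcf4 result was not tested.

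Foxp1, a forkhead factor of deep-layer cortical and striatal neurons, had the smallest p of all members for HT against WT averaged over treatments. It was at 0.16 ± 0.051, higher in 23 of 30 libraries, and did not pass (adjusted p = 0.0948). The 30 HT libraries ran from 1715 through a median of 2481 to 3451 counts and the 28 WT libraries from 1572 through a median of 2300 to 2753. It was at 0.20 ± 0.087 under fluoxetine (adjusted p = 0.192) and 0.16 ± 0.087 under vehicle. Without HT lithium female 1 or HT lithium male 2 it passed, with adjusted p of 0.0403 and 0.0424, and it also passed with array weights. Its median was 1983 counts in the 14 libraries rich in olfactory bulb genes and 2471 in the other 44, and with that list as a covariate the HT difference was 0.072 (adjusted p = 0.476). Under lithium averaged over genotypes it was at -0.17 ± 0.063 (adjusted p = 0.145) and passed with the covariate, and in WT alone at -0.16 ± 0.092 (adjusted p = 0.635).

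The remaining DNA-binding genes had no call. Adnp, a zinc finger homeobox gene of autism, was at -0.13 ± 0.057 with fluoxetine averaged over genotypes (adjusted p = 0.213) and at -0.18 ± 0.081 in HT (adjusted p = 0.47). Under fluoxetine it was at -0.16 ± 0.081 in HT against WT (adjusted p = 0.282). HT fluoxetine female 4 had 925 Adnp counts, and without it the fluoxetine difference in HT was -0.11 (adjusted p = 0.774) and that of HT against WT -0.083 (adjusted p = 0.605). Ctcf, the insulator protein that anchors chromatin loops, was among the steadiest genes at 1663 to 2032 counts. Pogz ran from 1466 to 2014 and Bcl11a, a zinc finger factor of deep-layer neurons, from 2026 to 3564. Pogz was called for fluoxetine averaged over genotypes with the olfactory bulb covariate and for lithium averaged over genotypes without the 14 libraries rich in that list, and Bcl11a for HT against WT averaged over treatments with the covariate.

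The coregulators Tcf20, Ankrd11 and Auts2 and the Mediator kinase module gene Med13l had no call. Med13l came closest, at -0.068 ± 0.025 with lithium averaged over genotypes (adjusted p = 0.133) and at 0.065 ± 0.035 for HT against WT under vehicle (adjusted p = 0.857). For lithium averaged over genotypes it was called with array weights and without the 2 libraries of lowest length slope. The Mediator kinase Cdk19, 1 of the 6 listed partners of MED13L, fell with lithium averaged over genotypes by 0.11 ± 0.026 (adjusted p = 0.00886). Ankrd11, mutated in KBG syndrome, ran from 5441 to 7402 counts, Tcf20 from 2544 to 3552 and Auts2 from 1597 to 2212.

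Of the ubiquitin-linked genes, Wac, an adaptor for histone H2B ubiquitination, was at 0.074 ± 0.036 for HT against WT under fluoxetine (adjusted p = 0.256). It was at -0.082 ± 0.036 for fluoxetine in WT (adjusted p = 0.289) and at -0.070 ± 0.038 for HT against WT under lithium (adjusted p = 0.915). In the fluoxetine by genotype contrast it was at 0.070 ± 0.050 (adjusted p = 0.964). Trip12, a ubiquitin ligase gene, ran from 4363 to 6735 counts. In the corepressor complex of TBL1XR1, Tbl1x, its X-linked paralogue, was higher in HT by 0.18 ± 0.030 under vehicle (adjusted p = 0.00107) and by 0.16 ± 0.018 averaged over treatments (adjusted p = 1.25e-08).

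Between the sexes no member was called (0 of 38, against 0.114% of all genes, with 4 members at an unadjusted p under 0.05 and 0 with edgeR or DESeq2). The 3 with the smallest p were Med13l at -0.053 ± 0.020 (adjusted p = 0.576), Tcf4 at -0.067 ± 0.029 (adjusted p = 0.605) and Tcf20 at -0.055 ± 0.025 (adjusted p = 0.631), all as female minus male. Of the 38 members 34 lay below 0 in females, with a median of -0.037, against 49.9% of all genes above 0. Libraries also differed in their length slope, the log2 gain per doubling of transcript length, which averaged -0.0058 in the 29 female and 0.0058 in the 29 male libraries. With the trend over GC content and length removed, 25 members lay below 0 and 13 above, with a median of -0.0096. Without the 2 libraries of lowest length slope, HT fluoxetine female 4 and HT vehicle female 2, 29 lay below and 9 above, with a median of -0.016. With the olfactory bulb covariate 35 lay below and 3 above, and 9 members had an unadjusted p under 0.05. Without the 14 libraries of high olfactory bulb signal 29 lay below and 9 above.

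No effect on a member differed between the sexes at the threshold. The counts were 0 of 38 for genotype by sex (0% of all genes, 2 members at an unadjusted p under 0.05), 0 of 38 for fluoxetine by sex (0% of all genes, 0 members unadjusted) and 0 of 38 for lithium by sex (0% of all genes, 0 members unadjusted), also with edgeR and DESeq2. The 3 with the smallest p for genotype by sex were Auts2 at 0.14 ± 0.060, Setd5 at -0.087 ± 0.041 and Mbd5 at -0.11 ± 0.056, each with an adjusted p of 0.994. For fluoxetine by sex they were Smarca4 at 0.079 ± 0.042 (adjusted p = 0.775), Smarca2 at 0.098 ± 0.063 (adjusted p = 0.809) and Tcf20 at 0.086 ± 0.059 (adjusted p = 0.82), which was 0.054 without HT vehicle female 2. For lithium by sex, 36 of 38 members lay above 0 and the 3 with the smallest p were Tcf20 at 0.12 ± 0.061, Kdm5b at 0.13 ± 0.085 and Tcf4 at 0.11 ± 0.072, each with an adjusted p of 1. The Kdm5b value was 0.079 without WT lithium female 3. The median of the 38 members for lithium by sex was 0.0505, against 0.0035 over all genes tested. After the trend over GC content and length was removed 32 lay above 0. With array weights 30 did, as did 30 without the 2 libraries of lowest length slope. With the olfactory bulb covariate 37 did, and without the 14 libraries of high olfactory bulb signal 36 did.

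The members moved together from library to library. After each group's mean was subtracted, the 703 pairs of members had a mean Pearson r of 0.45 over the 58 libraries, and 90.5% of pairs were above 0. Over all pairs of the 16606 genes the mean r was 0.00078, and over all pairs of the 5775 protein-coding genes with transcripts at least as long as the shortest member it was 0.053. These values are a description, since the members share the same libraries, with their depths, and all have transcripts longer than the median of the genes tested. The tightest pairs were Kmt2c with Ep300, Ash1l with Trip12 (both r = 0.91) and Kmt2a with Kmt2d (r = 0.89). Kmt2c had the highest mean r with the other 37 members (0.64), followed by Ep300 (0.63) and Trip12 (0.62). Smarca2 and Foxp1 were the 2 members with a negative mean r, at -0.26 and -0.20, and they ran with each other at r = 0.72.

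**Figure D4:**
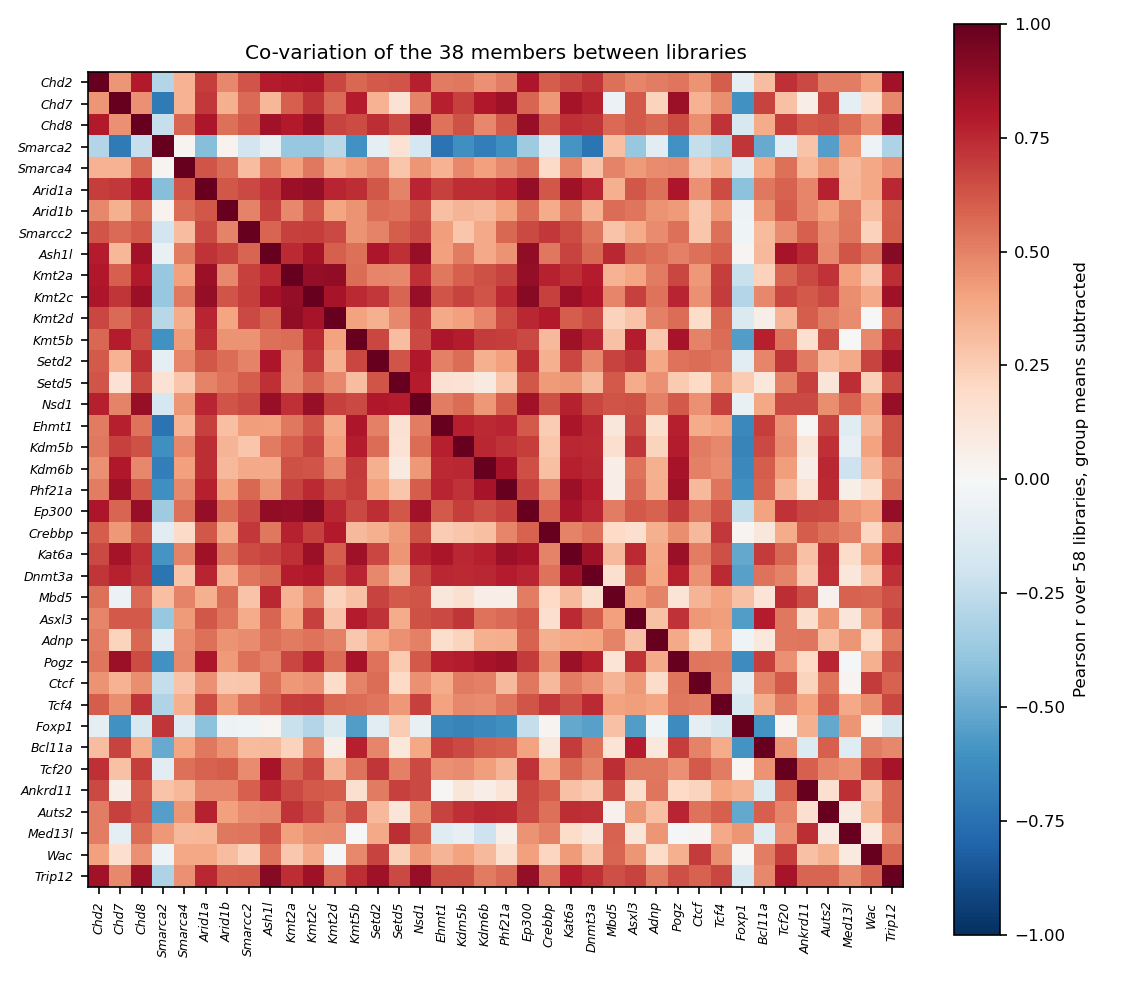
Pearson r of each pair of the 38 members over 58 libraries after group means were subtracted, from blue (-1) to red (1). Most of the matrix is red, and the rows of Smarca2 and Foxp1 are mostly blue except where they meet (r = 0.72).

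This shared movement went with the length slope of the libraries. The mean of the 38 members was lowest in HT fluoxetine female 4, at -0.246 from its group mean with a slope of -0.082 from its group mean. It was next lowest in HT vehicle female 2 (-0.175, slope -0.067) and highest in WT lithium female 3 (0.181, slope 0.047). Ash1l and Ep300 each had r = 0.90 with the slope, Kmt2c 0.89 and Kmt2a 0.87, while Smarca2 was at -0.15 and Foxp1 at -0.02. With the trend over GC content and length removed from each library, the mean r of member pairs was 0.16. What sets the slope was not tested.

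Members also varied with the olfactory bulb list. Bcl11a had r = 0.80 with the mean of that list over the 58 libraries after group means were subtracted, Chd7 and Kat6a 0.78 each, and Pogz 0.77, and 10 members reached 0.7. Foxp1 at -0.77 and Smarca2 at -0.70 ran the other way. Chd7 had a median of 594 counts (464 to 740) in the 14 libraries whose list sum reached 15000 and 401 (276 to 568) in the other 44. Kdm6b ran from 954 to 1734 in the former and from 592 to 1173 in the latter, while Bcl11a had medians of 3271 (2879 to 3564) and 2743 (2026 to 3390). Smarcc2, at 7433 (7002 to 8045) and 7452 (6511 to 8149), and Setd5, at 4108 (3839 to 4437) and 4125 (3380 to 4711), had closer medians and an r with the list of 0.31 and -0.03. The 14 libraries were picked by their marker level and are no group of the study.

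**Figure D5:**
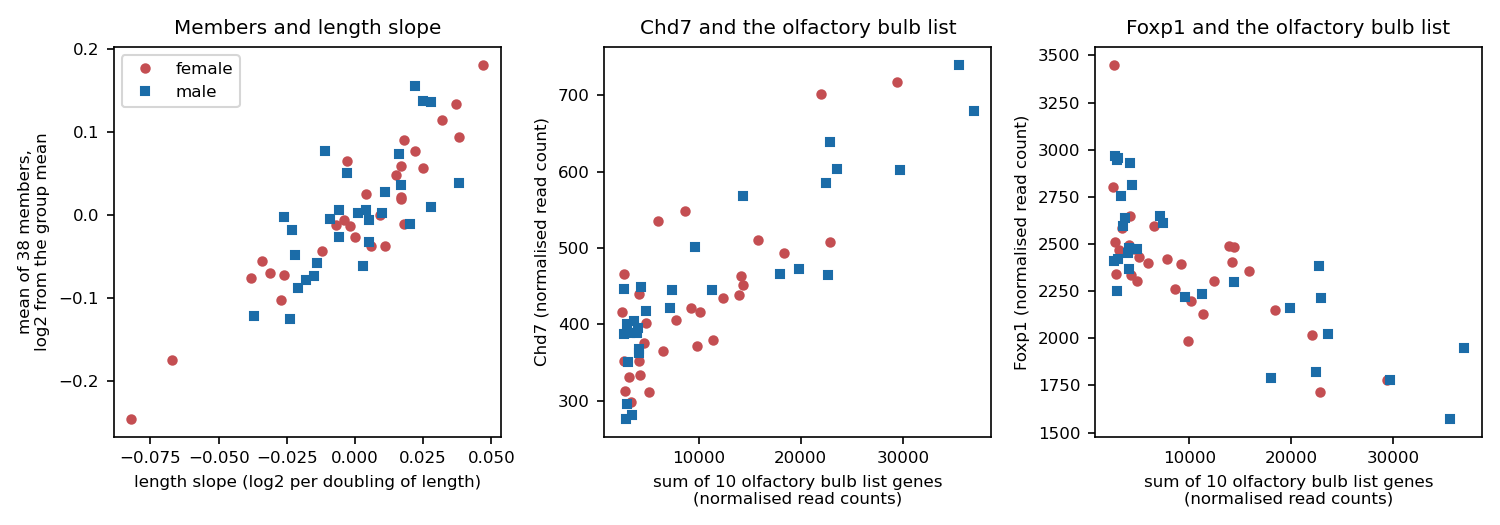
Left, mean of the 38 members in each library (log2 from the group mean) against the library's length slope (log2 per doubling of length, from the group mean), with females as circles and males as squares. Middle and right, normalised read counts of Chd7 and Foxp1 against the summed count of the 10 olfactory bulb list genes, where Chd7 is higher (median 594 against 401) and Foxp1 lower (1983 against 2471) in the 14 libraries above 15000.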

How the data were processed

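RNA sequencing of prefrontal cortex gave 58 libraries, grouped by the sample titles. The deposited table holds a signal that the authors scaled with a size factor for each library, so it is not raw counts. The submitters' processing notes list Salmon (0.11.2), DESeq2 (1.19.11), R (3.6.0) and the build GRCm38. In each library all values (100%) fell on multiples of a single step to within 0.0001, which gave back 22.9 to 35.0 M whole reads. The treatment of reads matching several genes is unstated in these sources. GENCODE M21 on GRCm38 named 18077 of 18088 genes.

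The log2 of deposited value + 1 was modelled with limma (3.58.1, R 4.3.3, trended variance) after genes averaging under 10 were dropped (16606 kept). A single model of 12 group means left 46 residual degrees of freedom, contrasts weighted both sexes equally, and p-values were adjusted over all genes by Benjamini-Hochberg with a threshold of 0.05. On this scale folds of low genes are understated. The script was tested on simulated data. The members, lists and tests were chosen with earlier results of these data known. The text names every called member, the 3 of smallest p where fewer than 3 passed, called partner genes (at most 2 per list and comparison) and Tbl1xr1. Alternatives were a pseudocount of 0.5 or 5, no minimum or a higher one (50), upper-quartile and median rescaling, array weights, removal of each library's GC and length trend, the replicate number as a block, edgeR 4.0.16 and DESeq2 1.42.0 on recovered reads, only the groups compared, each sex alone and each library left out. An olfactory bulb covariate, and leaving out the 14 libraries of high olfactory bulb signal or the 2 of lowest length slope, were chosen after seeing the data. Promoter sequences are from RefSeq (GRCm38.p6).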

Additional observations from a re-analysis of the deposited data

Results flagged for a closer look

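In the library values of Smarcc2, Smarca2, Tcf4 and Foxp1, 48 sets of 4 or 5 libraries were screened for a library far from the others by Dixon's test, and 4 stood out. Chance gives about 1 in 20. Smarcc2 had 8149 normalised read counts in WT fluoxetine female 1, where the next library of the group had 7463. That library had a striatal sum of 16337, where the group median was 6309. Its oligodendrocyte sum (222981, group median 123239) and astrocyte sum (141023, group median 110562) were also the highest of the group. Between libraries, after group means were subtracted, Smarcc2 had r = -0.02 with the striatal list. Smarca2 had 5953 in HT lithium female 1, where the next had 6561. The olfactory bulb sum of that library was 22822, where the group median was 4162. Tcf4 had 8012 in HT fluoxetine female 4, where the next had 9189, and that library also had the lowest length slope of all. Foxp1 had 3451 in HT vehicle female 5, where the next had 2496. The striatal sum of that library was 18724, where the group median was 6757. The part of these library properties in the flagged values was not tested.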

How the results depend on the processing

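None of the 48 differences of single genes that were recomputed changed sign under an alternative, and leaving out 1 library moved 6 of them by over 1.5 times, none of them called. The balance of members above and below 0 did turn. For HT against WT under vehicle (18 above, 20 below) it was 28 and 10 with the olfactory bulb covariate. With median centring it was 25 and 13. For HT against WT under fluoxetine (13 above, 25 below) it was 20 and 18 with the GC and length trend removed. For fluoxetine in WT (17 above, 21 below) it was 21 and 17 without the libraries of high olfactory bulb signal. Without those libraries it was 17 and 21 for fluoxetine by sex (23 above, 15 below). For fluoxetine by genotype (17 above, 21 below) it was 22 and 16 with array weights. For genotype by sex (19 above, 19 below) it ran from 14 and 24 to 27 and 11. Of 261 counts of called members under alternatives other than leaving out a library, 240 were within 1.5 times the count reported and 21 were not. For fluoxetine averaged over genotypes (1 member) the count was 2 with the GC and length trend removed, 3 with the olfactory bulb covariate, and 0 without the libraries of high olfactory bulb signal, in females alone and in males alone. For lithium in HT (1 member) it was 2 (Smarca2 added) with array weights, the olfactory bulb covariate, the libraries of high olfactory bulb signal left out and DESeq2, and 0 in each sex alone. For lithium averaged over genotypes (2 members) it was 1 with median centring, with only the groups compared and in males alone, 4 with the olfactory bulb covariate and 0 in females alone. For HT against WT averaged over treatments (0 members) it was 1 with array weights, with the trend removed and with the olfactory bulb covariate. For HT against WT under fluoxetine (0 members) it was 1 with the trend removed, and for fluoxetine in WT (0 members) 1 with array weights. The cause was not tested, except that each sex alone holds fewer libraries. With 1 library left out, the counts ran from 0 to 1 for HT against WT averaged over treatments, from 1 to 2 for lithium in HT and from 1 to 2 for lithium averaged over genotypes. They stayed at 1 for fluoxetine averaged over genotypes and at 0 in the other 12 comparisons. Smarcc2 stayed called in all 20 such fits for lithium in HT (adjusted p from 0.0039 to 0.0225) and all 38 for lithium averaged over genotypes (0.00414 to 0.0157), and Tcf4 in all 40 for fluoxetine averaged over genotypes (0.0119 to 0.0453).

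The counts of all genes called depended more on the setting. For fluoxetine averaged over genotypes (423) they ran from 17 without the libraries of high olfactory bulb signal to 886 with array weights, and for lithium averaged over genotypes (443) from 154 to 1058 with the same settings. They ran from 32 without those libraries to 189 with DESeq2 for lithium in HT (64), from 0 without them to 284 with array weights for lithium in WT (5), and from 10 to 859 with those settings for fluoxetine in WT (61). For HT against WT they ran from 70 without the 2 libraries of lowest length slope to 593 with array weights under fluoxetine (165), from 107 without the libraries of high olfactory bulb signal to 369 with array weights averaged over treatments (177), up to 9 with DESeq2 under vehicle (3) and up to 7 with DESeq2 under lithium (2). For fluoxetine in HT (0) DESeq2 called 19.

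With the replicate number as a block (replicate block), the counts of members were 1 for fluoxetine averaged over genotypes, 1 for lithium in HT, 2 for lithium averaged over genotypes and 0 elsewhere, as without it. The numbers, taken from the sample titles, did not pair the libraries. The 309 pairs of the same number had a median r of 0.0024 after group means were subtracted. Of the 58 libraries, 8 correlated best with their own number. In the WT lithium males some title numbers differ from those in the library names, so that the block and this check may mispair that group. The standard error of the lithium effect in HT was 0.026 for Smarcc2 and 0.14 for Kdm6b, so that differences of the size called for Smarcc2 could not be called for the most variable members.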
